A study of Mus musculus with 6 samples.

Results

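The MYC, MAX and MXD network is a family of transcription factors with a basic helix-loop-helix leucine zipper. It was followed here through 9 genes, Myc, Mycn, Max, Mxd1, Mxd3, Mxd4, Mxi1, Mnt and Mlx, which were taken by name from the 25001 loci of the deposited expression files. All 9 were found, each in 1 row, and 8 of them reached 1 FPKM somewhere. FPKM counts the fragments per kilobase of transcript, scaled by the fragments of the library, so that levels of different genes can be set side by side.

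The cells were 427.1.86 thymoma cells (427 cells), a mouse line that expresses the membrane serine protease epithin/PRSS14, encoded by St14. Its intracellular domain, EICD, can be freed from the membrane by shedding of the ectodomain and cleavage by the intramembrane protease SPPL2b. Control 427 cells carried the pSUPER vector without an insert and received DMSO or 1 µM PMA, a phorbol ester that activates protein kinase C and induces shedding. The treatment lasted 2 h and followed serum deprivation of 2 h. SPPL2b knockdown cells (SP2bKD cells) received DMSO or PMA in the same way. Further SP2bKD cells were transfected with a GFP vector alone or with GFP vector and Flag-EICD, the tagged intracellular domain, and GFP-positive cells were sorted. All 6 libraries came from 1 cell line, the genotype was labelled wild type for the 427 libraries and SPPL2b KD for the other 4, and the SP2bKD lines are described in the study's methods as single-cell clones with an shRNA, whereas the labels give an siRNA. Each condition had 1 library, so no difference has a replicate check, no p-value was computed, and knockdown and clone cannot be told apart.

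Depth, estimated from the smallest steps in the FPKM values, was 26000000 to 30000000 fragments a library, and 10555 to 10873 loci stood at 1 FPKM or above. Sppl2b, the targeted gene, had 9.90 (DMSO) and 6.86 (PMA) FPKM in 427 cells, 13.4 and 9.37 in SP2bKD cells, and 11.4 and 13.2 after transfection with GFP alone and with EICD. Compared at the same treatment, it was higher in the libraries labelled SPPL2b knockdown than in 427 cells, and SP2bKD stands below for the label. Its locus overlaps Lsm7, which reads without strand cannot separate. Lsm7 itself was lower in SP2bKD cells, at 69.5 (DMSO) and 74.3 (PMA) FPKM in 427 cells and 33.6 and 60.8 in SP2bKD cells. The effect of the overlap on Sppl2b was not tested. St14 stood at 614.5 in the GFP plus EICD library and at 69.6 to 105.4 in the other 5. By the study's methods Flag-EICD is itself St14 coding sequence, so fragments of the transfected construct can count at this locus. The share of the endogenous gene was not tested. Of 9 thymic epithelial markers 7 reached an FPKM of 1, with a sum of 6328 to 15032 per library, although Aire was listed at 0 in all 6. The thymocyte markers summed to 1.96 to 3.68, with Cd3e, Cd3d and Cd4 at 0 throughout and only 1 of 7 at an FPKM of 1 in any library, and no fibroblast or endothelial marker reached that level. Of 5 macrophage markers, Csf1r (2.37 to 7.35) and Cd68 (1.25 to 2.58) did, with a sum over the list of 4.48 to 8.69, while Adgre1 was at 0 throughout. In such bulk RNA, fewer cells expressing a gene and less of its RNA per cell cannot be told apart.

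As background, MYC binds DNA as a dimer with MAX at the E-box CACGTG and, with acetyltransferase complexes, raises transcription of genes for ribosome assembly, nucleotide synthesis and glycolysis. MAX also pairs with MXD1, MXI1, MXD3, MXD4 and MNT, which bring in SIN3 and histone deacetylases at the same sites, so that the supply of partners for MAX is thought to set the output of the network. MLX is a second common partner, which links MNT, MXD1 and MXD4 to the glucose-responsive factors MLXIP and MLXIPL. MYC mRNA and protein both turn over rapidly, and Myc is a classical early growth response gene.

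The E-box also stands in the promoters of some network genes themselves. RefSeq sequences upstream of annotated starts (GRCm38.p6) were matched for 8 of the 9 genes, all but Myc. The 250 bases before the start of Mxd4 (chr5:34187711-34187960, minus strand), Mnt (chr11:74830674-74830923, plus strand) and Mlx (chr11:101087040-101087289, plus strand) each hold 1 CACGTG, shown in capitals. They are printed because these 3 genes carry the motif of their own protein family and differ widely in how much they varied, as described below. Mxd1 (chr6:86669160-86669409, minus strand) is printed because its values separated the lines under PMA. It holds no CACGTG, and capitals there mark its 4 CCAAT boxes.
Mxd4: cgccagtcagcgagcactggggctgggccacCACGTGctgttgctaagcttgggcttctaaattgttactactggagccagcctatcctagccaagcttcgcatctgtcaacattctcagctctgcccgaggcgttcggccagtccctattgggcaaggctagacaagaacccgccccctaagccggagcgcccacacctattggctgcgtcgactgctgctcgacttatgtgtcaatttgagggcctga
Mnt: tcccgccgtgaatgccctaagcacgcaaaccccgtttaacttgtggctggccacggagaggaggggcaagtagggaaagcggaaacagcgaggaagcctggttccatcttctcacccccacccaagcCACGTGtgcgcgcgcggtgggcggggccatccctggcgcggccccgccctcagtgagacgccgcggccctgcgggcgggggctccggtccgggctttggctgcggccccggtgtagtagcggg
Mlx: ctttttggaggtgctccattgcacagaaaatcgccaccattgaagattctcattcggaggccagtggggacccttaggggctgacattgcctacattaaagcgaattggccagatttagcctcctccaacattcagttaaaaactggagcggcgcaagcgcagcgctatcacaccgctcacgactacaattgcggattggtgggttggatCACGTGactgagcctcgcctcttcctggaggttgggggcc
Mxd1: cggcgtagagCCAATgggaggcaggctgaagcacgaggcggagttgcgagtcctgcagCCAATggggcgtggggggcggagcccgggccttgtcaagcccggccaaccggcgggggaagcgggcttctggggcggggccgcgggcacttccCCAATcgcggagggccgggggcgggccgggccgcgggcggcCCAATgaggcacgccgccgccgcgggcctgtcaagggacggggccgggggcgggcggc

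CACGTG, which reads the same on both strands, begins 219 bases before the start in Mxd4, 123 in Mnt and 40 in Mlx. Over all RefSeq promoters of this length, 1978 of 32851 hold it (6.02%), which is 6.86% of genes, against 3 of the 8 network genes matched and 8 of 53 MYC-activated target genes matched (15.1%). With 8 genes this is a description, and a match says only that the letters are there. The AP-1 motif TGACTCA and the cyclic AMP response element TGACGTCA, searched on both strands, were in none of the 8, against 5.16% and 1.77% of genes. The GC box GGGCGG was in 6 of the 8, in 64.2% of the target genes matched and in 35.4% of all genes. Mxd1 holds 6 copies, of which the 2 nearest the start overlap. CCAAT was in 3 of the 8 (Mxd1, Mxd4 and Mlx) and in 37.5% of all genes.

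Myc was the most abundant member in all 6 libraries. In 427 cells its FPKM was 38.1 after DMSO and 75.7 after PMA, in SP2bKD cells 33.0 after DMSO and 79.9 after PMA, and in transfected cells 77.7 with GFP and 107.8 with GFP plus EICD. The 2 DMSO libraries were thus low, the PMA and GFP libraries lay close together, and the GFP plus EICD library was the highest. Myc lies on chromosome 15 from 61985341 to 61990374, plus strand, in GRCm38, and no other gene shares its exons in GENCODE M21. Mycn, its neuronal paralogue, was listed at 0 in 4 libraries, at 0.0361 for PMA-treated SP2bKD cells and at 0.0461 for GFP alone, at most 3 fragments each by estimate, and entered no comparison.

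Max, the common partner, ranged from 23.3 to 38.1 FPKM. It was 26.6 and 38.1 in 427 cells with DMSO and PMA, 23.3 and 31.8 in SP2bKD cells with DMSO and PMA, 27.9 with GFP and 27.0 with GFP plus EICD. Its highest value was only 1.64 times its lowest, against 3.27 times for Myc. Mlx behaved alike in size, with 31.8 and 38.9 FPKM in 427 cells, 29.7 and 38.2 in SP2bKD cells, 29.4 with GFP and 26.2 with GFP plus EICD. For both genes the 2 PMA libraries were the highest of the 6.

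Among the partners that repress, Mxd4 and Mxd3 were low in both PMA libraries. Mxd4 had an FPKM of 20.0 and 6.98 in 427 cells with DMSO and PMA, 22.3 and 6.49 in SP2bKD cells, 10.8 with GFP and 18.2 with GFP plus EICD. Mxd3, expressed in S phase in many tissues, had 5.74 and 2.27 in 427 cells, 4.96 and 2.32 in SP2bKD cells, 4.93 with GFP and 4.72 with GFP plus EICD. The PMA libraries were the lowest for both genes, while the transfected libraries lay between PMA and DMSO for Mxd4 and close to DMSO for Mxd3.

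Mxi1, also known as Mxd2, had an FPKM of 11.3 and 7.88 in 427 cells with DMSO and PMA, 14.2 and 9.13 in SP2bKD cells, 12.3 with GFP and 19.4 with GFP plus EICD. Again the PMA libraries were lowest, and the EICD library was the highest. Mnt, the broadly expressed antagonist of MYC, stayed between 8.66 and 10.2 FPKM in all 6 libraries, a range of 1.18 times and the narrowest of the 8 genes. Its values were 9.50 and 8.66 in 427 cells, 9.82 and 9.25 in SP2bKD cells, 8.80 with GFP and 10.2 with GFP plus EICD.

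Mxd1, best known as a MAX partner of differentiating cells, had the widest range of all, 3.90 times. Its FPKM in 427 cells was 6.89 after DMSO and 18.1 after PMA, but 8.93 and 9.84 in SP2bKD cells, 4.64 with GFP and 6.53 with GFP plus EICD. The 427 library with PMA stood well above the other 5.

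**Figure D1:**
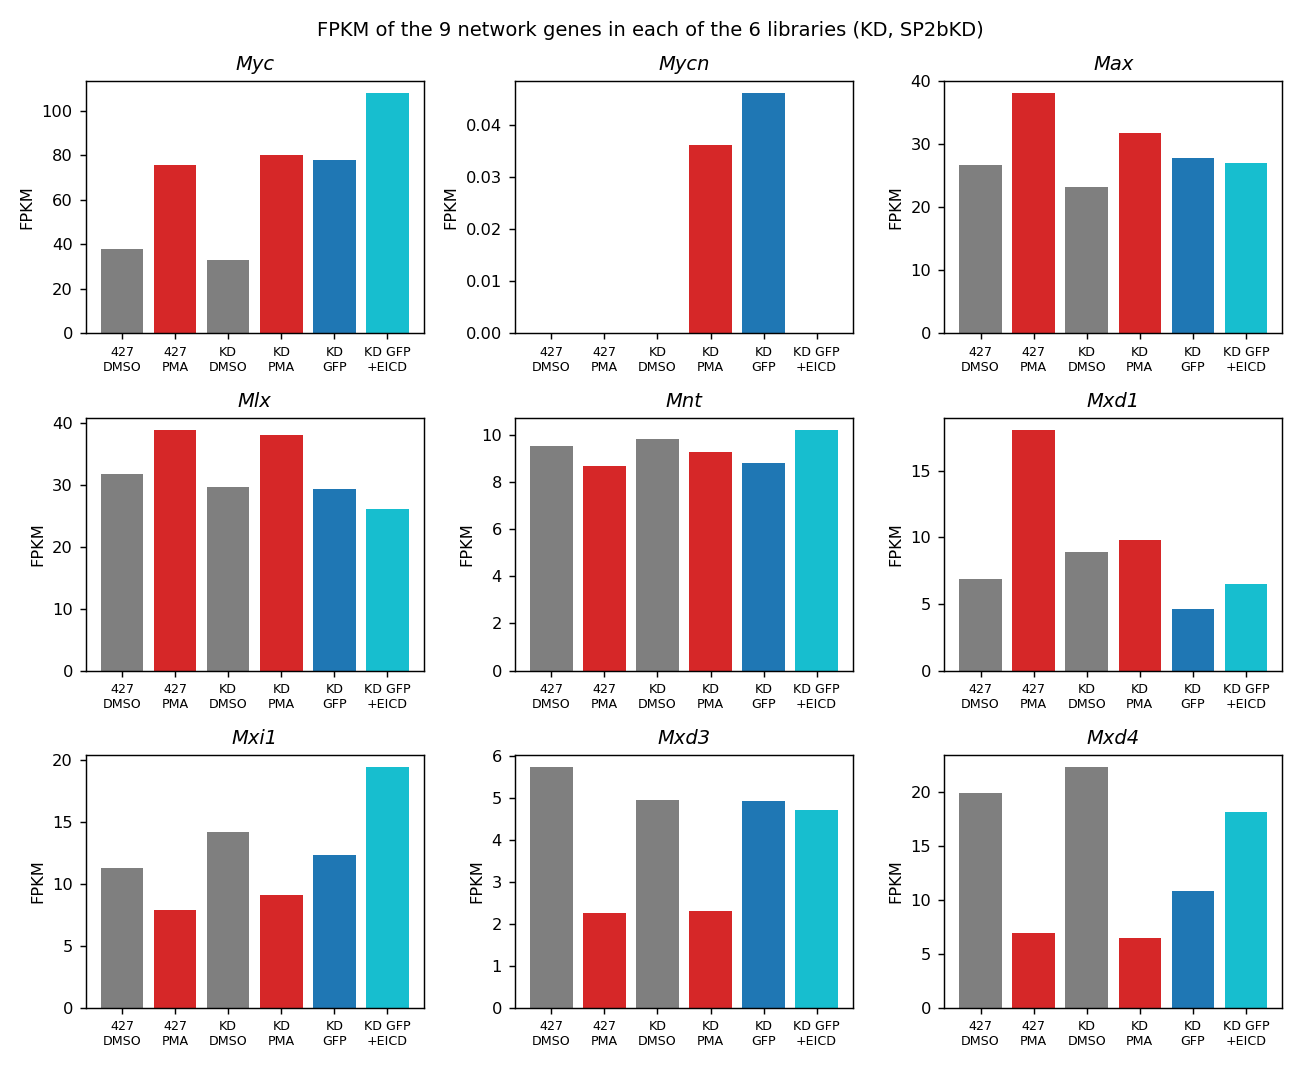
FPKM (vertical axis, from 0, with its own scale in each panel) of the 9 network genes in the 6 libraries (horizontal axis; KD, SP2bKD; bars coloured grey for DMSO, red for PMA, blue for GFP and cyan for GFP plus EICD). Each bar is 1 library without error, and the reader should see Myc low in both DMSO libraries (38.1 and 33.0), Mxd4 low in both PMA libraries (6.98 and 6.49), Mxd1 high in 1 library (18.1) and Mnt flat.

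In each library Myc ranked first, and Mlx and Max followed in either order with overlapping ranges. Below them Mxd4, Mxi1, Mnt and Mxd1 had overlapping ranges, and Mxd3 came last among the expressed members in 5 of the 6 libraries, the exception being the GFP library, where Mxd1 did. With 1 library a condition there is no spread against which neighbours in this order could be separated.

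The first comparison set PMA against DMSO in 427 cells. Shedding was not measured in these libraries, so its part in the ratios was not tested. Myc was 1.99 times as high with PMA, Mxd1 2.62 times as high, Max 1.43 times and Mlx 1.22 times. Mxd4 was 2.86-fold lower, Mxd3 2.52-fold lower and Mxi1 1.44-fold lower, and Mnt differed by 1.10-fold. On the log2 scale, with 0.01 FPKM added to each library, the ratios were 1.39 for Mxd1, 0.99 for Myc, 0.52 for Max, 0.29 for Mlx, -0.13 for Mnt, -0.52 for Mxi1, -1.33 for Mxd3 and -1.52 for Mxd4. Counting error gives these ratios a standard error of at least 0.04 for Myc, 0.06 for Mxd1 and 0.16 for Mxd3.

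A gene was counted when it differed by more than 2-fold and 1 or both of the compared libraries held at least 1 FPKM. By this rule 1 of the 8 members tested was higher with PMA in 427 cells (Mxd1) and 2 were lower (Mxd3 and Mxd4), beside 4.44% of 10981 loci that were higher and 5% that were lower. Myc lay just inside 2-fold. When the libraries were scaled so that the median log2 ratio of all loci was 0, which moved the median of all tested loci by 0.11, the log2 ratio of Myc was 1.10. The median log2 ratio was 0.08 over the 8 members and -0.12 over all loci tested, so the members as a group did not move one way.

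In SP2bKD cells the same treatment gave Myc 2.42 times as high, Max 1.37 times and Mlx 1.29 times. Mxd4 was 3.44-fold lower, Mxd3 2.14-fold and Mxi1 1.56-fold. Mxd1 differed by 1.10-fold. The log2 ratios were 1.28 for Myc, 0.45 for Max, 0.36 for Mlx, 0.14 for Mxd1, -0.09 for Mnt, -0.64 for Mxi1, -1.10 for Mxd3 and -1.78 for Mxd4. Of the 8 members, 1 was counted higher (Myc) and 2 lower (Mxd3 and Mxd4), beside 3.83% and 6.4% of 10987 loci. Mxd3, at an estimated 121 to 225 fragments, lay just past 2-fold, and with 1 added to each FPKM its log2 ratio was -0.85. The median was 0.03 over the members and -0.15 over all loci.

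Of the 8 members, Mxd1 alone had PMA ratios that differed between the lines by more than 2-fold. Its log2 ratio in SP2bKD cells minus that in 427 cells was -1.25, at rank 140 from the lowest of 10687 loci, where the median difference was -0.0012 and 3.22% of loci lay more than 1 from 0. For the other 7 members this difference lay between -0.27 for Mxd4 and 0.29 for Myc. Scaling each library to an FPKM sum of 1000000 moved the difference for Mxd1 to -0.96. Without replicates it was not tested whether this difference exceeds the spread between cultures.

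**Figure D2:**
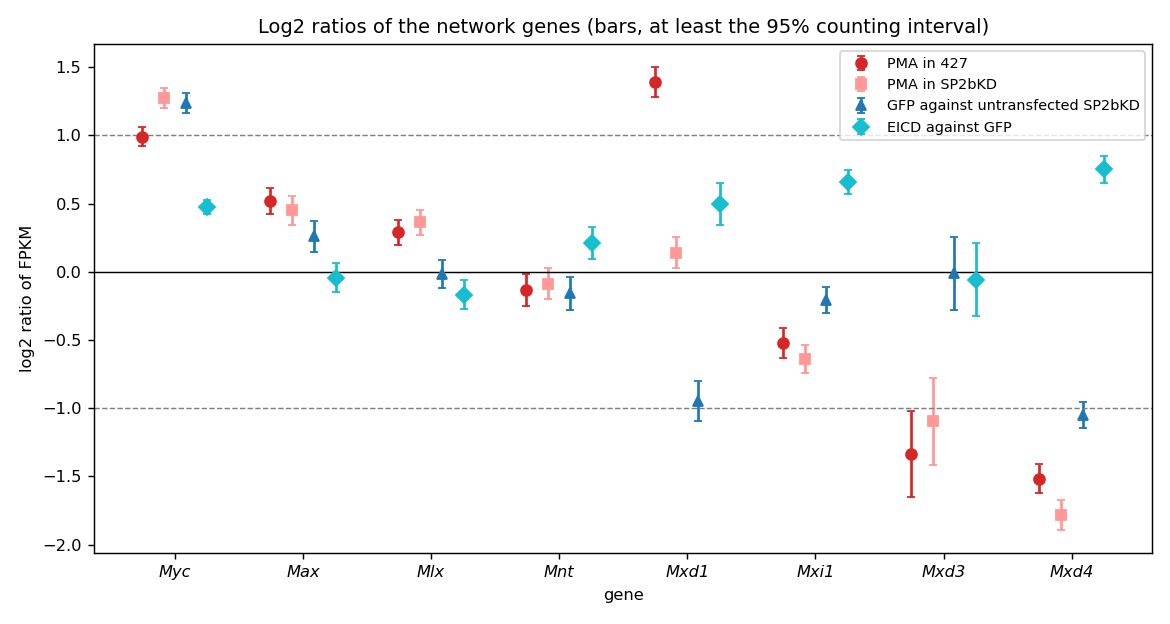
Log2 ratios of FPKM (vertical axis) of the 8 expressed network genes (horizontal axis) for PMA in 427 cells, PMA in SP2bKD cells, GFP against untransfected SP2bKD cells and EICD against GFP. Error bars are 1.96 counting standard errors to each side, a lower limit that holds no culture error, and dashed lines mark 2-fold, with Mxd1 at 1.39 and 0.14 under PMA in the 2 lines and Mxd4 at -1.52 and -1.78.

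The lines were also compared under the same treatment. With DMSO the log2 ratios of SP2bKD to 427 cells ran from -0.21 (Myc and Mxd3) to 0.37 (Mxd1), with Mxi1 at 0.33, Mxd4 at 0.16, Mnt at 0.05, Mlx at -0.10 and Max at -0.19. None of the 8 members was past 2-fold, beside 3.92% of 11078 loci that were higher and 3.13% that were lower. With PMA the ratios ran from -0.88 (Mxd1) to 0.21 (Mxi1), with Mnt at 0.10, Myc at 0.08, Mxd3 at 0.03, Mlx at -0.03, Mxd4 at -0.10 and Max at -0.26. Mxd1 was 1.84-fold lower in SP2bKD cells. Again none was past 2-fold, beside 2.56% and 3.27% of 10840 loci, and with shares of this size a count of 0 of 8 says nothing particular about the network. Scaling each library to the same FPKM sum moved the median of all loci by 0.96 with DMSO and by 1.24 with PMA, since the 10 largest loci held 93.9% and 94.2% of the sum in 427 cells and 88.2% and 87.3% in SP2bKD cells. Under that scaling all 8 members stood above 0 in both comparisons, for example Myc at 0.76 with DMSO and Mxd1 at 0.37 with PMA, so no direction between the lines is read from these values. Both line comparisons share their libraries with the PMA comparisons.

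The GFP library was set against SP2bKD cells with DMSO. In this comparison transfection, sorting, DMSO and, as far as the labels state it, serum deprivation differ together. The study's methods name 1 clone for the transfected cells, whereas the clone of the DMSO library is not given. Myc was 2.35 times as high in the GFP library, with a log2 ratio of 1.24. Mxd4 was 2.07-fold lower (log2 ratio -1.05) and Mxd1 1.92-fold lower (-0.94), so that these 2 genes lay on either side of the 2-fold line. Max stood at 0.26, Mnt at -0.16, Mxi1 at -0.21, and Mxd3 and Mlx at -0.01. Of the 8 members 1 was counted higher and 1 lower, beside 4.01% and 5.14% of 11066 loci. Mxd4 no longer passed 2-fold with 1 added to each FPKM (-0.98) or with scaling to a median of 0 (-0.97). Early growth response genes moved in the same comparison, with 10 of 11 more than 2-fold higher, among them Fosb (0.445 to 105.3 FPKM) and Fosl1 (1.92 to 16.7). Their part in the Myc value was not tested.

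EICD against GFP was the comparison in which the domain itself was added. Myc was 1.39 times as high with EICD, from 77.7 to 107.8 FPKM, and reached the highest level of the 6 libraries. Mxd4 was 1.68 times as high, Mxi1 1.58 times and Mxd1 1.41 times, while Max (0.97 times) and Mxd3 (0.96 times) stayed near 1, and Mlx was 1.12-fold lower. The log2 ratios were 0.75 for Mxd4, 0.66 for Mxi1, 0.50 for Mxd1, 0.47 for Myc, 0.21 for Mnt, -0.04 for Max, -0.06 for Mxd3 and -0.17 for Mlx, with counting errors of at least 0.03 for Myc and 0.14 for Mxd3. No member passed 2-fold, beside 3.93% of 10991 loci that were higher and 0.81% that were lower. The median was 0.34 over the members and 0.07 over all loci, and scaling to the same FPKM sum moved the latter by -0.21. Both comparisons with the GFP library share it.

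Set together per library, Myc and 5 repressing partners gave a balance. Mga, whose protein also pairs with MAX, was not part of it. The summed FPKM of Mxd1, Mxd3, Mxd4, Mxi1 and Mnt was 53.4 and 43.8 in 427 cells with DMSO and PMA, 60.3 and 37.0 in SP2bKD cells, 41.5 with GFP and 59.1 with GFP plus EICD. Myc over this sum was 0.713 and 1.73 in 427 cells, 0.547 and 2.16 in SP2bKD cells, 1.87 with GFP and 1.83 with GFP plus EICD. Myc was thus below the sum in both DMSO libraries and above it in the other 4, and the ratio, being within a library, does not depend on how libraries are scaled.

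With PMA this ratio was 2.42 times that with DMSO in 427 cells and 3.94 times in SP2bKD cells. The log2 ratio of the sum itself was -0.29 in 427 cells against -0.70 in SP2bKD cells, and Mxd1 was the partner whose PMA ratio differed most between the lines. With EICD the ratio was 0.975 times that with GFP alone, with Myc and the sum both higher (log2 ratios of 0.47 and 0.51). Myc over Max was 1.43 and 1.99 in 427 cells, 1.42 and 2.51 in SP2bKD cells, 2.79 with GFP and 3.99 with GFP plus EICD, the highest of the 6.

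Among the 5 partners summed, the leading one also changed between libraries. Mga, which pairs with MAX too and was not in the sum, stood above each of them in every library, at 24.9 to 30.3 FPKM. Mxd4 made up 37.4% and 37.1% of the sum in the DMSO libraries of 427 and SP2bKD cells, and 15.9% and 17.5% with PMA. Mxd1 led with PMA, at 41.2% in 427 cells and 26.6% in SP2bKD cells, where Mnt (25.0%) and Mxi1 (24.7%) lay close behind. Mxi1 led in both transfected libraries, at 29.7% with GFP and 32.9% with GFP plus EICD. These are RNA levels, and protein and dimers were not measured in these files.

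**Figure D3:**
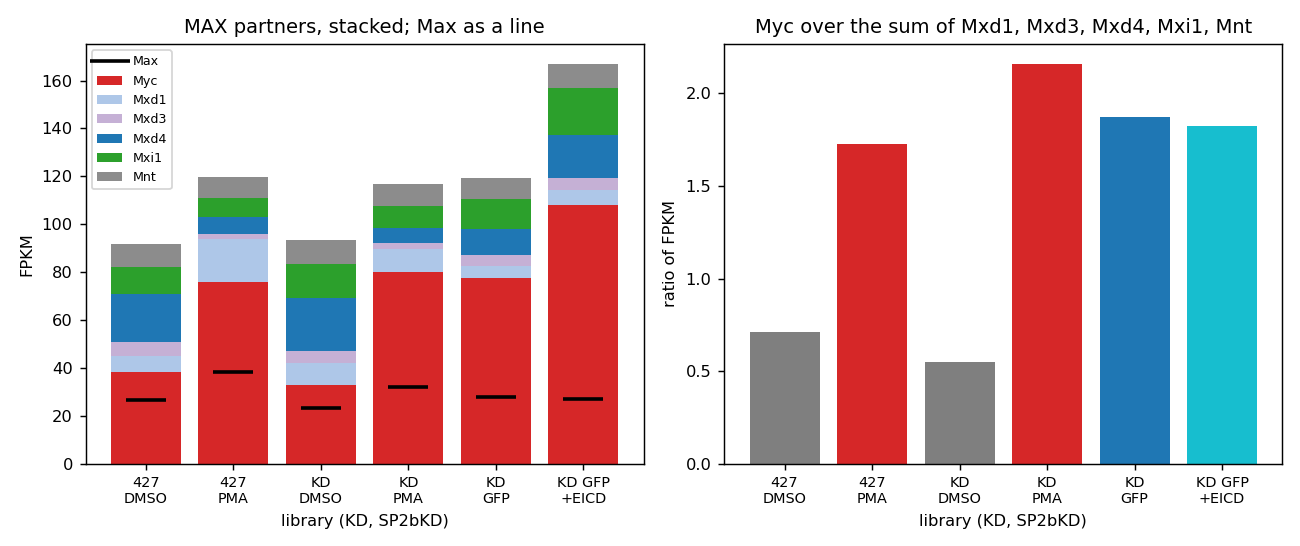
Left, FPKM (vertical axis, from 0) of Myc and 5 repressing MAX partners stacked per library (horizontal axis; KD, SP2bKD), with Max as a black line. Right, Myc over the summed FPKM of these 5 partners, at 0.713 and 0.547 in the DMSO libraries and between 1.73 and 2.16 in the other 4; each bar is 1 library without error.

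Over the 6 libraries the log2 FPKM of Max was correlated with that of Mxd1 (r = 0.68) and Mlx (r = 0.78) and inversely with that of Mxd4 (r = -0.88) and Mxd3 (r = -0.86). For Myc the values were weaker, from -0.55 with Mxd4 to 0.53 with Max. These are descriptions over 6 points that share libraries, lines and treatments.

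Further factors of the wider network were read in the same way. Mycl, the third MYC paralogue, had an FPKM of 4.92 and 3.42 in 427 cells with DMSO and PMA, 9.89 and 7.97 in SP2bKD cells, 8.74 with GFP and 14.6 with GFP plus EICD. It was higher in all 4 SP2bKD libraries than in both 427 libraries, with log2 ratios between the lines of 1.01 with DMSO and 1.22 with PMA. With EICD its log2 ratio was 0.74. Mga, which pairs with MAX, lay between 24.9 and 30.3 FPKM and Mlxip, the MLX partner, between 20.1 and 30.4. Mlxipl stayed at or below 0.114.

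MLX and its partners control Txnip, an inhibitor of glucose uptake, and the related arrestin Arrdc4. Txnip had an FPKM of 16.6 and 3.03 in 427 cells with DMSO and PMA, 31.9 and 9.17 in SP2bKD cells, 32.2 with GFP and 107.7 with GFP plus EICD. Its log2 ratios were -2.45 and -1.80 for PMA in 427 and SP2bKD cells and 1.74 for EICD against GFP, so its range far exceeded that of Mlx or Mlxip. Arrdc4 differed by 0.02 and 0.06 with PMA and stood at 6.76 FPKM with GFP and 13.5 with GFP plus EICD.

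Genes that MYC is known to raise were followed as a list of 59, mostly factors of ribosome assembly and nucleotide metabolism, of which all 59 were tested. With PMA 3 were past 2-fold higher in 427 cells and 9 in SP2bKD cells, and none was lower, beside 4.44% and 3.83% of all loci that were higher. The count in 427 cells is near that background. The median log2 ratio was 0.32 in 427 cells and 0.39 in SP2bKD cells, against -0.12 and -0.15 over all loci, with 44 and 49 of the 59 above 0. Odc1, the rate-limiting enzyme of polyamine synthesis, went from 103.2 to 335.6 FPKM in 427 cells and in SP2bKD cells from 74.1 to 193.0. Hk2, the hexokinase of the first step of glycolysis, went from 14.7 to 39.7 and from 11.4 to 35.3. Slc29a2, a nucleoside transporter, had log2 ratios of 1.32 and 1.48, and the folate carrier Slc19a1 had 0.61 and 1.22.

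In the GFP library the median of the 59 was 0.31, against -0.08 over all loci. Slc29a2 (1.28) was the only one past 2-fold, beside 4.01% of all loci that were higher. With EICD the median was -0.27, against 0.07 over all loci. Of the 59 genes 46 lay below 0 and 13 above. None was past 2-fold in either direction, beside 3.93% of all loci that were higher and 0.81% that were lower. Myc itself was higher in that comparison (0.47). Between the lines the medians were -0.03 with DMSO and 0.03 with PMA. Fbl, the methyltransferase of ribosomal RNA, was the only one past 2-fold, lower with DMSO, beside 3.13% of all loci. It stood at 112.1 FPKM in 427 cells and 49.8 in SP2bKD cells with DMSO (log2 ratio -1.17). With PMA it stood at 99.2 and 88.1 (log2 ratio -0.17). In transfected SP2bKD cells it had 84.6 with GFP and 62.5 with GFP plus EICD, so the SP2bKD library with DMSO was the lowest.

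**Figure D4:**
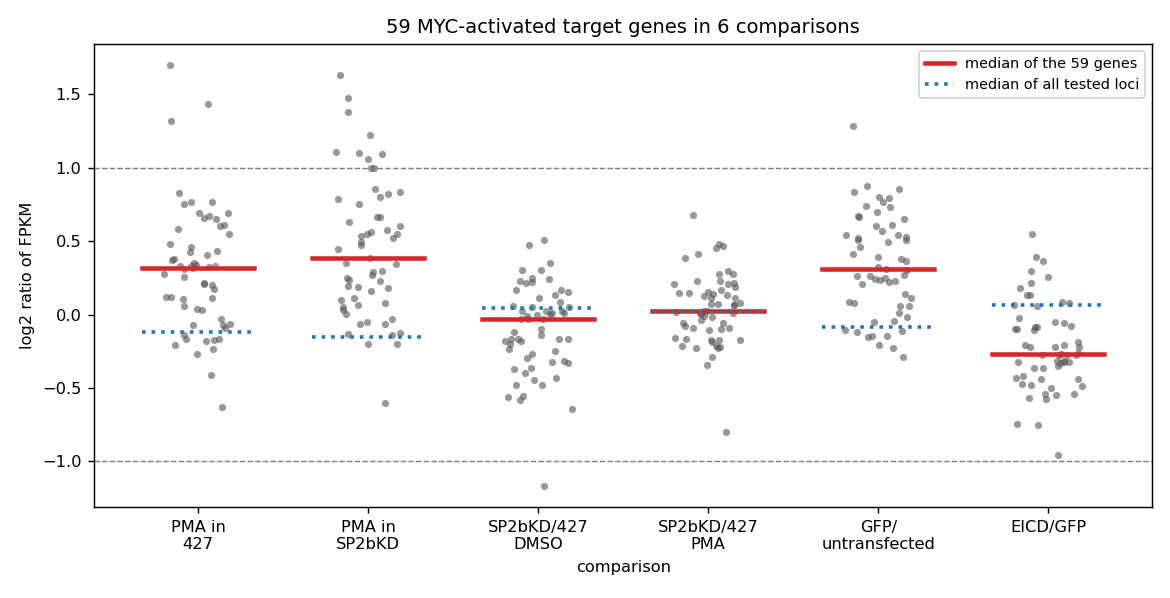
Log2 ratios of FPKM (vertical axis) of 59 MYC-activated target genes (points, spread sideways only for sight) in the 6 comparisons (horizontal axis), with the median of the 59 as a red line, the median of all loci tested as a dotted blue line and 2-fold as dashed lines. The red line stands at 0.32, 0.39 and 0.31 for PMA in 427 cells, PMA in SP2bKD cells and GFP, and at -0.27 for EICD.

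Genes that MYC is known to repress were 7, of which 6 were tested. With PMA 3 of them were more than 2-fold lower in each line, beside 5% of all loci in 427 cells and 6.4% in SP2bKD cells, and none was higher. Cebpa, a factor of differentiation, had log2 ratios of -2.46 and -2.81 in 427 and SP2bKD cells, Cdkn2b, an inhibitor of cyclin D kinases, -1.55 and -1.03, and Cdkn1b, an inhibitor of cyclin E kinases, -1.17 and -1.24. Cdkn1a, the p53-responsive cell cycle inhibitor, did not share this, at 60.9 and 108.3 FPKM in 427 cells with DMSO and PMA and 42.5 and 43.9 in SP2bKD cells. In the GFP library the median of the 6 was -0.43, against -0.08 over all loci, with only Cdkn1a (0.86) above 0. Ndrg1 alone was past 2-fold lower than in DMSO-treated cells (log2 ratio -1.37), beside 5.14% of all loci. With EICD 2 of the 6 were more than 2-fold higher, beside 3.93% of all loci, and none was lower. Ndrg1, a stress-responsive gene, went from 15.9 to 60.4 FPKM and Gadd45a, a DNA damage response gene, from 10.96 to 30.8, with log2 ratios of 1.92 and 1.49. For Ndrg1 the GFP library was the one that stood apart, as the 4 untransfected libraries lay between 38.4 and 59.2.

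None of 15 cofactors and corepressors, among them Trrap, Kat5, Sin3a, Sin3b, Hdac1 and Hdac2, passed 2-fold in any of the 6 comparisons, and their log2 ratios lay between -0.56 and 0.43. At 0.81% to 6.4% of all loci past 2-fold in one direction, a list of 15 can give such a count without being particular. Of 13 genes for MYC protein turnover, Fbxo32, a ubiquitin ligase subunit, was the only one past 2-fold, at 9.18 FPKM in DMSO-treated SP2bKD cells and 3.84 with GFP. Huwe1, a ubiquitin ligase, stood at 251.2 FPKM in SP2bKD cells with PMA and at 124.4 to 148.4 in the other 5 libraries. Usp36, a nucleolar deubiquitinase of MYC, was higher with PMA in both lines, by log2 ratios of 0.47 and 0.89, and with EICD by 0.63.

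Among 7 proteins that bind Myc mRNA, Igf2bp1, which shields its coding region from decay, was counted past 2-fold in 3 of the 4 comparisons in which it reached 1 FPKM. All 3 counts were lost with 1 added to each FPKM. It had an FPKM of 0.411 and 0.0144 in 427 cells with DMSO and PMA, 1.02 and 0.192 in SP2bKD cells, 1.35 with GFP and 0.448 with GFP plus EICD. The other 6, such as Hnrnpd, Elavl1 and Ptbp1, did not pass 2-fold in any comparison. Levels of Igf2bp1 and Myc thus did not run in parallel under PMA or EICD.

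As a check on PMA itself, 7 of 10 early response genes tested were more than 2-fold higher in 427 cells and 8 of 10 in SP2bKD cells. Over all loci the shares were 4.44% and 3.83%. Fosl1 went from 4.71 to 73.8 FPKM and from 1.92 to 49.5, and Dusp6, a phosphatase of ERK, from 11.1 to 112.3 and from 5.98 to 82.0. Dusp1 went the other way, with log2 ratios of -0.40 in 427 cells and -1.11 in SP2bKD cells, and Egr1 was at -0.25 in 427 cells and 0.86 in SP2bKD cells. With 1 added to each FPKM the count in SP2bKD cells was 5. With scaling to the same FPKM sum the count in 427 cells was 4. There the minimum applied to the scaled values, so that Fos and Fosb were not tested. Between the lines with PMA, 9 of the 10 were lower in SP2bKD cells, with a median log2 ratio of -0.61. Of these, 3 were past 2-fold, beside 3.27% of all loci that were lower. Mxd1 (-0.88) also lay in this direction. With DMSO, 8 of 9 early genes tested were already lower in SP2bKD cells, with a median of -0.66, whereas Mxd1 stood at 0.37. With PMA and scaling to the same FPKM sum, 0 of the early genes were past 2-fold lower and 2 were past 2-fold higher. The PMA log2 ratios of Fos were 2.41 in 427 cells and 1.61 in SP2bKD cells, and those of Fosb 3.29 and 2.01. Among the 10 genes tested, Ier3, Dusp1 and Dusp5 also had lower PMA ratios in SP2bKD cells. Fosl1, Junb, Egr1, Ier2 and Dusp6 had higher ones there. The part of these genes in the Mxd1 value was not tested.

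Library preparation did not keep strand, and 4 members share exonic bases with a gene on the other strand in GENCODE M21. Mxd4 shares 514 bases with Gm42846, Mlx 385 with Psmc3ip, Mxi1 194 with Gm10197 and Mxd3 105 with Prelid1, so their values may hold fragments of these genes. Myc, Max, Mxd1 and Mnt share none.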

How the data were processed

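Messenger RNA from 6 conditions was sequenced as paired ends with an unstranded library kit, and the authors deposited 1 table of FPKM values per library, made with TopHat2 2.1.1, Cufflinks 2.1.1 and Cuffdiff 2.1.1 on GRCm38. STAR 2.4.0b is listed without a role in the submitters' processing notes. The tables hold 25001 loci (12836 annotated with new isoforms, 8948 annotated, 3217 newly assembled). FPKM depends on the assembled gene model and on the fragments taken by the largest loci.

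Groups were taken from the sample labels. From the FPKM, log2 ratios were computed in Python 3.11.15 with NumPy 2.4.6 and pandas 2.3.3, adding 0.01 to both libraries. For EICD against GFP only the EICD library received 0.01, and loci below 0.01 in the GFP library were dropped. The study's methods also raised this library alone, by the smaller amount of 0.001, which was run as an alternative. Loci past 2-fold were counted where either library held at least 1 FPKM. No test was run with 1 library per condition. Depth was estimated from FPKM steps of 881 annotated genes whose only transcript exceeds 2500 bases, and counting errors from it and the longest annotated transcript are lower limits that cover counting only. The scripts were tested on simulated data.

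The 9 members, the gene lists and the marker lists were chosen with earlier results of these data known. All members were named in every comparison, and from other lists at most the 4 genes with the largest log2 ratios past 2-fold, except that any gene of a list of up to 15 could be named, beside the 5 loci most correlated with Myc and Mxd1. The alternatives were other amounts added (0.001, 0.1 or 1), 3 scalings (upper quartile, median log2 ratio of 0, FPKM sum of 1000000), other minima (0.1, 10 or none) and summed rows. Promoter sequences came from RefSeq, GRCm38.p6.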

Additional observations from a re-analysis of the deposited data

How the results depend on the processing

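No paired analysis was possible because each condition has 1 library, and for the same reason no library could be left out. No member's log2 ratio changed sign from a value past 2-fold, and of 122 alternative counts of members 107 stayed within 1.5 times. With 1 added to each FPKM, the members counted lower were 1 for PMA in SP2bKD cells and 0 for GFP. With scaling to a median log2 ratio of 0, 2 were counted higher for PMA in 427 cells, 1 lower for PMA in SP2bKD cells and 0 lower for GFP. With scaling to an FPKM sum of 1000000 the minimum applied to the scaled values, so that Mxd3 was not tested. Of the other members, 1 was lower for PMA in each line, and 4 (DMSO) and 5 (PMA) were higher in SP2bKD than in 427 cells. The log2 ratio of Mxd3 itself stayed past 2-fold lower for PMA in both lines, and was 1.22 between the lines with PMA. With a minimum FPKM of 10, 1 was lower for PMA in each line, since Mxd3 was no longer tested. With no minimum Mycn entered, and 2 were higher for PMA in SP2bKD cells, 1 for SP2bKD against 427 with PMA, 2 for GFP, and 1 lower for EICD. The counts over all loci ranged over the 6 comparisons from 278 to 488 higher and from 89 to 703 lower, from 135 to 346 and 38 to 322 with 1 added, from 62 to 259 and 25 to 219 at a minimum of 10, from 1125 to 1491 and 598 to 1893 at 0.1, from 1789 to 2455 and 1058 to 2671 with no minimum, and from 108 to 6829 and 19 to 261 with equal sums. For PMA in SP2bKD cells 421 loci were higher and 703 lower, but 541 and 495 with scaling to a median of 0. With equal sums, 4427 were higher and 26 lower in SP2bKD cells with DMSO, and 6829 and 19 with PMA. All equal-sum counts of loci applied the minimum to the scaled values. The log2 ratios and line differences of the members changed sign in 13 of 56 cases with equal sums, 3 of 56 with scaling to a median of 0 and 2 of 56 with the upper quartile, none of them past 2-fold before. Beyond the causes given by construction, the cause was not tested. Depth limits Mycn, Mlxipl and Igf2bp1, all near or under 1 FPKM.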

Other observations

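The locus whose log2 FPKM was most correlated with that of Myc over the 6 libraries was Tmem158 (r = 0.99), among 9832 named loci at or above 1 FPKM throughout. Tmem158 had an FPKM of 2.14 and 3.59 in 427 cells with DMSO and PMA, 1.85 and 3.31 in SP2bKD cells, 3.52 with GFP and 4.48 with GFP plus EICD. B3gnt1, Taf4b and pol followed, and the fifth was Tgfb1, a secreted cytokine (r = 0.98), with 9.12 and 18.5 FPKM in 427 cells, 9.94 and 18.3 in SP2bKD cells, 19.0 with GFP and 23.6 with GFP plus EICD. Like Myc, both genes were lowest in the DMSO libraries and highest with EICD.

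The loci most like Mxd1 were Ctsl, a lysosomal protease (r = 0.98), Atp7a, a copper transporter, Rapgef2, an exchange factor of RAP1, Etv3, a repressor of the ETS family, and 4931406P16Rik (r = 0.97). Rapgef2 had an FPKM of 5.71 and 9.90 in 427 cells with DMSO and PMA, 5.82 and 6.17 in SP2bKD cells, 4.35 with GFP and 5.38 with GFP plus EICD. Etv3 had 10.6 and 15.9 in 427 cells, 10.4 and 12.5 in SP2bKD cells, 7.98 with GFP and 9.82 with GFP plus EICD. As for Mxd1, the 427 library with PMA was the highest and the GFP library the lowest. These likenesses were picked from many loci over 6 points that share lines and treatments, and are descriptions.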
